A study of Danio rerio with 9 samples.

Results

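The genes described here are the apelin peptide ligands *apela* and *apln* and the apelin receptors *aplnra* and *aplnrb*, taken by name from a table of RNA counts of zebrafish tailbuds. They are 4 of the 32020 rows of the table, each name stands on 1 row, and all 4 passed the filter on low counts that left 19914 genes for testing. Of the 4 genes, *apela* was lower in both transgenic lines, and neither the second ligand nor either receptor passed edgeR's test against wild type with TMM scaling. With DESeq2 *aplnra* passed in 1 of the lines, and so did *aplnrb* with another scaling, as given beside their values.

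The samples were 3 of wild-type tailbuds, 3 of tg(*hsp70l:tbx16*) tailbuds and 3 of tg(*hsp70l:msgn1*) tailbuds, each of 10 pooled tailbuds cut off just behind the newest somite. All embryos, wild type included, had a 30 min heat shock at the 2 to 3 somite stage and 3 h of recovery. The labels give the heat shock as 28 °C, whereas the study's methods give a higher temperature. Per those methods, the wild-type tailbuds were non-transgenic embryos of the heterozygous tg(*hsp70l:msgn1*) crosses, and the tg(*hsp70l:tbx16*) embryos came from homozygous parents crossed to wild type. Line and parents therefore cannot be told apart where tg(*hsp70l:tbx16*) is compared. The *hsp70l* promoter responds to heat in the whole embryo and not in a single tissue, and reads of a transgene were not separated from those of the endogenous gene. The question was which genes respond within hours to the T-box factor *tbx16* or the bHLH factor *msgn1*, which act as mesodermal progenitors become presomitic mesoderm.

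Apelin receptors are G protein-coupled receptors that signal mainly through inhibitory G proteins. In zebrafish, the small secreted peptide encoded by *apela* (also called Toddler or Elabela) is needed for the movement of mesoderm and endoderm cells during gastrulation. At somite stages, Elabela from the notochord guides angioblasts, the precursors of blood vessel cells, toward the midline. Apelin itself, encoded by *apln*, is best known from the growth of vessels, and the receptors *aplnra* and *aplnrb* are needed for heart precursors to form and to reach their place.

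Counts per sample summed to between 30750552 and 49654769. At this depth the counting error of a member was at most 4.28%, for the 546 counts of *apln* in tg(*hsp70l:msgn1*) replicate 1. Levels are given as CPM, the count relative to the total of the library after TMM scaling, and a gene is called where the adjusted p of edgeR's quasi-likelihood test over all 19914 genes was under 0.05. The *tbx16* row had 564 to 976 CPM in tg(*hsp70l:tbx16*) against 332 to 372 in wild type, and the *msgn1* row 1428 to 1958 CPM in tg(*hsp70l:msgn1*) against 701 to 889. All 8 genes of a list of tailbud progenitor markers were detected in wild type. The 10 most counted genes took 8.59% and 8.68% of the counts of tg(*hsp70l:msgn1*) replicates 1 and 3 and between 5.49% and 6.65% in the other 7 samples. These replicates also had the lowest TMM factors, 0.807 and 0.867. Fits with each sample left out were read for the 4 members and *aplnr2*. Calls of the list genes below were not followed through those fits, so their dependence on 1 sample is not known. Nothing in the labels says whether replicates came from separate clutches, so p-values measure the spread between these samples.

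The ligand gene *apela* had 76.4, 79.2 and 67.3 CPM in wild-type replicates 1, 2 and 3. In tg(*hsp70l:tbx16*) it had 40.4, 44.2 and 27.2 CPM in the same order of replicates. In tg(*hsp70l:msgn1*) it had 35.9, 39.02 and 33.0 CPM. The lowest wild-type sample thus lay above the highest sample of both lines, and the lines overlapped each other. The raw counts behind these values were 2710 to 3352 in wild type, 1226 to 2472 in tg(*hsp70l:tbx16*) and 891 to 1413 in tg(*hsp70l:msgn1*).

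In tg(*hsp70l:tbx16*), *apela* fell 1.99-fold, from 74.3 ± 6.22 to 37.3 ± 8.89 CPM (SD, n = 3), which is a change of -0.99 on the log2 scale with a standard error of 0.17 (adjusted p = 0.00175, edgeR). It was the 1 of 4 members called, where 30.7% of all tested genes were called, 15.7% as lower and 15% as higher. With each of the 9 samples left out in turn, the log2 fold change stayed between -1.13 and -0.81 and *apela* was called in all 9 fits. The value nearest to 0 was the fit without tg(*hsp70l:tbx16*) replicate 3, the sample with the least *apela* and also with the least *tbx16* of its line (564 CPM, against 836 and 976). The part of *tbx16* dose in this was not tested.

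In tg(*hsp70l:msgn1*), *apela* fell 2.06-fold, to 36.0 ± 3.01 CPM (SD, n = 3), a change of -1.05 on the log2 scale with a standard error of 0.17 (adjusted p = 0.0224, edgeR). Here too it was the 1 of 4 members called, in a comparison in which 0.854% of all tested genes were called, 0.497% as lower and 0.357% as higher. By p-value *apela* was number 81 of 19914 genes in this comparison and number 1509 in the comparison of tg(*hsp70l:tbx16*) with wild type, although its fold change was of like size. The size of the change held with each sample left out (-1.11 to -0.99), but the call did not: the adjusted p rose to 0.111, 0.102 and 0.0538 without wild-type replicates 1, 2 and 3, and to 0.0934 and 0.0840 without tg(*hsp70l:msgn1*) replicates 1 and 3. With DESeq2 the adjusted p was 1.91e-06, and over all alternatives it ran from that value to 0.391. The largest was from a fit with tg(*hsp70l:msgn1*) replicate 2 as the only sample of its line (log2 fold change -0.94), which was chosen after seeing the data.

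The lines were also compared with each other. The level of *apela* in tg(*hsp70l:tbx16*) minus that in tg(*hsp70l:msgn1*) was 0.05 on the log2 scale (95% interval -0.32 to 0.42, adjusted p = 0.834, edgeR), so the data allow a level in tg(*hsp70l:tbx16*) between 0.801 and 1.34 times that in tg(*hsp70l:msgn1*). Its sign changed when single samples were left out (-0.079 to 0.23). Both comparisons with wild type use the same 3 wild-type samples.

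**Figure D1:**
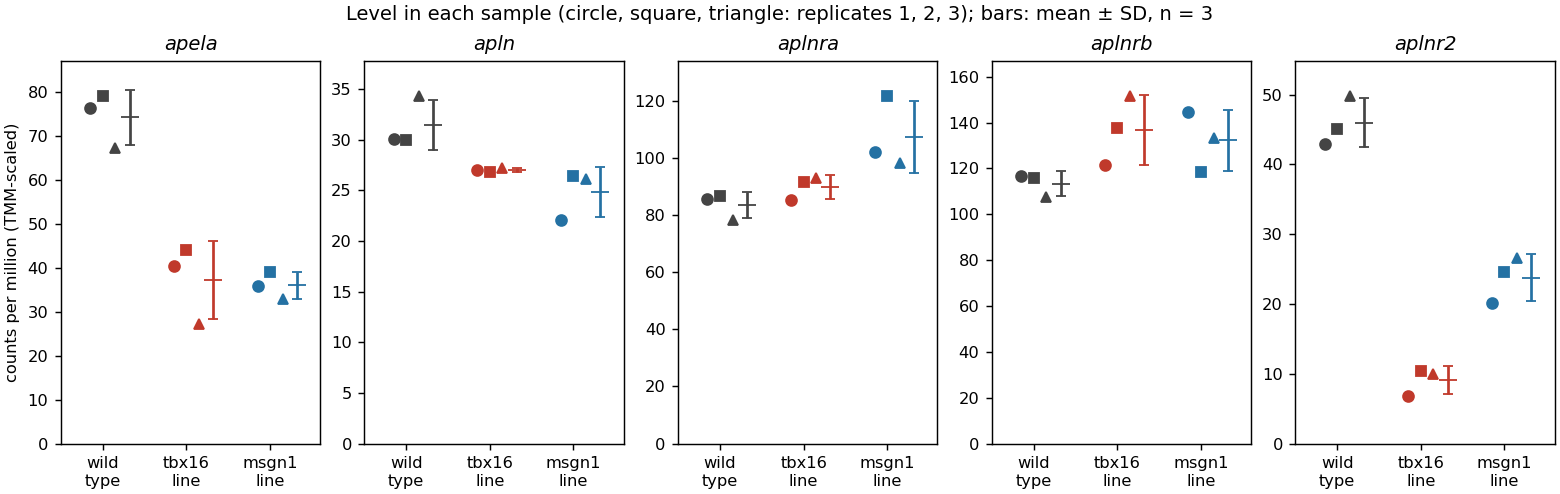
Level of *apela*, *apln*, *aplnra*, *aplnrb* and the related gene *aplnr2* in each of the 9 samples, in CPM (scaled by TMM) on axes that start at 0. Symbols are replicates, and bars give the mean ± SD of 3 samples. The wild-type samples of *apela* (67.3 to 79.2) lie above all 6 transgenic samples (27.2 to 44.2), whereas the receptors *aplnra* and *aplnrb* lie near or above the wild-type range.

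The second ligand gene, *apln*, had 30.0, 30.0 and 34.3 CPM in wild type. It had 27.0, 26.8 and 27.2 CPM in tg(*hsp70l:tbx16*). The values in tg(*hsp70l:msgn1*) were 22.01, 26.4 and 26.1 CPM. All 6 transgenic samples were below all 3 wild-type samples, and the order of the groups was wild type, tg(*hsp70l:tbx16*), tg(*hsp70l:msgn1*), with no overlap between neighbours.

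These differences in *apln* were small and did not pass the test. The log2 fold change was -0.22 in tg(*hsp70l:tbx16*) (95% interval -0.47 to 0.03, adjusted p = 0.171, edgeR) and -0.34 in tg(*hsp70l:msgn1*) (95% interval -0.59 to -0.09, adjusted p = 0.247, edgeR). The unadjusted p in tg(*hsp70l:msgn1*) was 0.0135 in that model. Between the lines the log2 difference was 0.12 (95% interval -0.13 to 0.37, adjusted p = 0.433, edgeR), and leaving out tg(*hsp70l:msgn1*) replicate 1, the lowest sample, brought it to 0.04.

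The receptor gene *aplnra* had 85.5, 86.6 and 78.1 CPM in wild type and 85.1, 91.6 and 93.0 CPM in tg(*hsp70l:tbx16*). In tg(*hsp70l:msgn1*) it had 102, 122 and 98.2 CPM. Wild type and tg(*hsp70l:tbx16*) overlapped, and all 3 tg(*hsp70l:msgn1*) samples were above the other 6. The log2 fold change was 0.36 in tg(*hsp70l:msgn1*) (95% interval 0.13 to 0.60, unadjusted p = 0.00645, adjusted p = 0.193, edgeR), which did not pass, while DESeq2 called it (adjusted p = 0.0350). With each sample left out, this log2 fold change ran from 0.26 to 0.42 and was lowest without tg(*hsp70l:msgn1*) replicate 2. In tg(*hsp70l:tbx16*) it was 0.11 (95% interval -0.13 to 0.34, adjusted p = 0.476, edgeR). The difference between the lines was -0.25 (95% interval -0.49 to -0.02, adjusted p = 0.0827, edgeR).

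The receptor gene *aplnrb* had 117, 116 and 107 CPM in wild type. It had 121, 138 and 152 CPM in tg(*hsp70l:tbx16*) and 145, 119 and 133 CPM in tg(*hsp70l:msgn1*). All 6 transgenic samples were above the wild-type samples, with tg(*hsp70l:msgn1*) replicate 2 the closest, and the lines overlapped. The log2 fold change was 0.27 in tg(*hsp70l:tbx16*) (95% interval 0.02 to 0.52, adjusted p = 0.0980, edgeR) and 0.22 in tg(*hsp70l:msgn1*) (95% interval -0.03 to 0.47, adjusted p = 0.409, edgeR). With scaling by library size and no TMM factor, *aplnrb* was called in tg(*hsp70l:tbx16*) at 0.42 (adjusted p = 0.00730, edgeR). That scaling moved the median of all tested genes in this comparison from 0.03 to 0.18.

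Counted over the 4 members, 4 did not overlap between tg(*hsp70l:msgn1*) and wild type, where 18.6% of all tested genes did not. The ligands *apela* and *apln* lay below wild type, as did 9.78% of all genes, and the receptors *aplnra* and *aplnrb* above it, as did 8.84%. Overlap was counted with TMM scaling alone, whose factors were lowest in tg(*hsp70l:msgn1*) replicates 1 and 3. Over the 8 alternatives besides single samples left out, the log2 fold change of *aplnra* in that line ran from 0.19 to 0.53. For *aplnrb* it ran from 0.03 to 0.23. Between tg(*hsp70l:tbx16*) and wild type 3 did not overlap, where 52.8% of all genes did not: both ligands were below (25.1% of all genes) and *aplnrb* above (27.8%). Between the lines, *apln* was higher in tg(*hsp70l:tbx16*) without overlap (27.4% of all genes) and *aplnra* lower (23.7%), which makes 2 of 4, where 51.1% of all genes did not overlap. In that comparison 0 of 4 members were called by edgeR, where 38.3% of all genes were called, 18.5% as higher in tg(*hsp70l:tbx16*) and 19.8% as lower. DESeq2 also called 0, and 1 member, *aplnra*, had an unadjusted p under 0.05 with either tool.

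**Figure D2:**
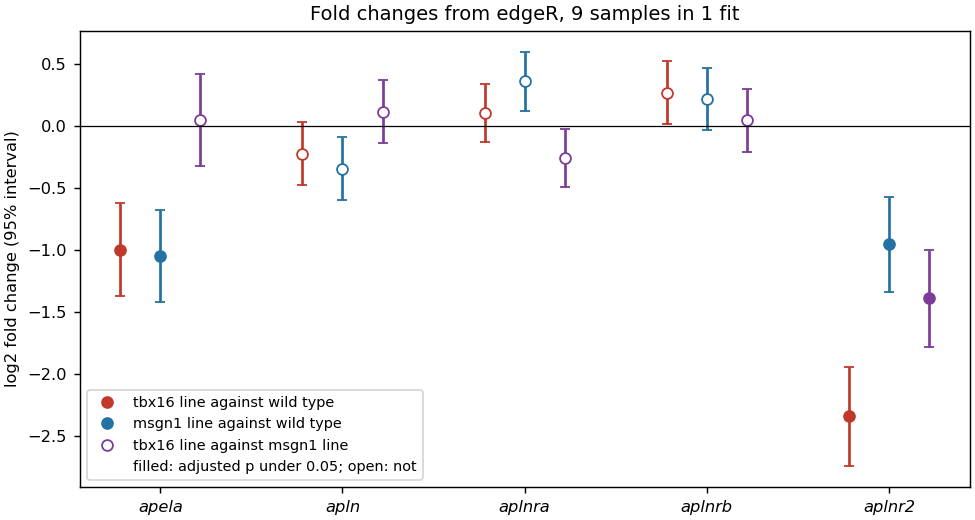
Log2 fold changes from edgeR with 95% intervals for the same 5 genes in 3 comparisons. Filled symbols passed an adjusted p of 0.05. The 2 points of *apela* against wild type lie at -0.99 and -1.05 and its difference between the lines at 0.05, while *aplnr2* differs in all 3 comparisons.

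Ratios of members within a sample do not depend on how libraries are scaled to each other. Their absolute size depends on gene length, so only differences between samples are read. The log2 ratio of *apela* to *aplnra* was -0.16, -0.13 and -0.22 in wild type. It was -1.08, -1.05 and -1.77 in tg(*hsp70l:tbx16*) and -1.51, -1.64 and -1.57 in tg(*hsp70l:msgn1*). The mean difference from wild type was -1.13 on the log2 scale in tg(*hsp70l:tbx16*) and -1.40 in tg(*hsp70l:msgn1*), with no overlap with wild type in either. The exact two-sided permutation p was 0.1 for each, the smallest that 3 samples against 3 allow (0.15 after Benjamini-Hochberg adjustment over 9 ratio tests).

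The log2 ratio of *apela* to *aplnrb* was -0.61, -0.55 and -0.67 in wild type. It was -1.59, -1.64 and -2.48 in tg(*hsp70l:tbx16*) and -2.01, -1.60 and -2.02 in tg(*hsp70l:msgn1*). The mean differences from wild type were -1.29 and -1.26, again without overlap and with exact permutation p = 0.1 for each. In tg(*hsp70l:tbx16*), replicate 3 had the lowest value of both ligand to receptor ratios, with the least *apela* and the most *aplnrb* of its group.

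The ratio of the receptors to each other moved less. The log2 ratio of *aplnra* to *aplnrb* was -0.45, -0.42 and -0.46 in wild type and -0.51, -0.59 and -0.71 in tg(*hsp70l:tbx16*), a mean difference of -0.16 without overlap (exact permutation p = 0.1, two-sided). In tg(*hsp70l:msgn1*) it was -0.51, 0.04 and -0.44. There 1 sample, replicate 2, stood apart from the other 8 samples, and the mean difference from wild type was 0.14 with it and -0.03 without it.

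**Figure D3:**
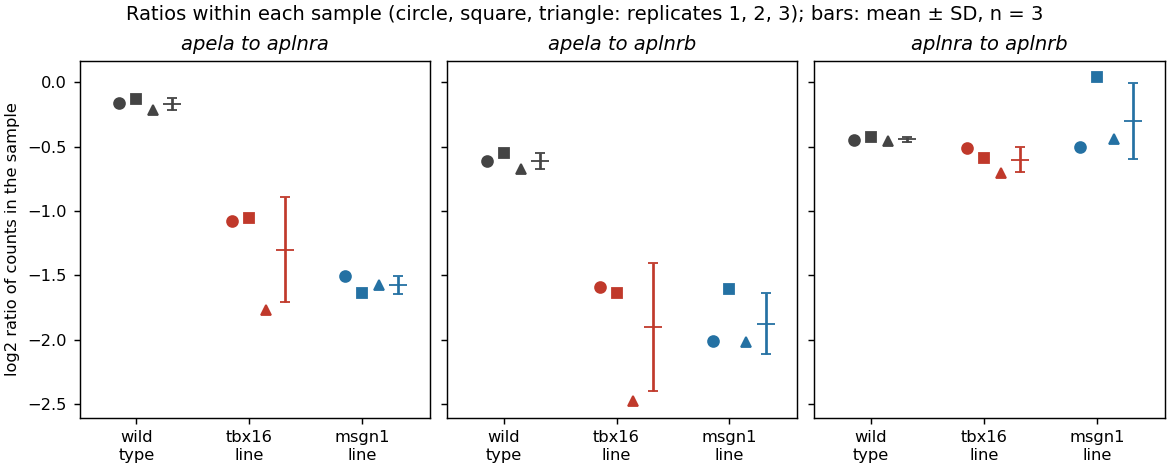
Log2 ratio of counts of *apela* to *aplnra*, *apela* to *aplnrb* and *aplnra* to *aplnrb* within each sample, with the mean ± SD of 3 samples. Both ligand to receptor ratios are lower in all 6 transgenic samples than in wild type, and tg(*hsp70l:msgn1*) replicate 2 stands alone in the ratio of the receptors (0.04).

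The table holds a further gene named after the family, *aplnr2*, which is not among the 4 and was picked after its values were seen. It had 43.0, 45.1 and 49.8 CPM in wild type. It had 6.80, 10.4 and 10.02 CPM in tg(*hsp70l:tbx16*) and 20.1, 24.6 and 26.6 CPM in tg(*hsp70l:msgn1*). The 3 groups did not overlap, in the order wild type, tg(*hsp70l:msgn1*), tg(*hsp70l:tbx16*).

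The log2 fold change of *aplnr2* was -2.34 in tg(*hsp70l:tbx16*) (standard error 0.18, adjusted p = 1.9e-05, edgeR), a 5.06-fold decrease, and -0.95 in tg(*hsp70l:msgn1*) (standard error 0.17, adjusted p = 0.0363, edgeR). It differed between the lines by -1.39 (standard error 0.18, adjusted p = 0.000319, edgeR). The call in tg(*hsp70l:msgn1*) held in 3 of the 9 fits with a sample left out, with log2 fold changes from -1.04 to -0.85 and adjusted p up to 0.136. It was lost without any 1 of the 3 wild-type samples, of tg(*hsp70l:msgn1*) replicates 1 and 3, or of tg(*hsp70l:tbx16*) replicate 3.

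Genes that act with the receptors were counted from lists. Over all tested genes, edgeR called 15% higher and 15.7% lower in tg(*hsp70l:tbx16*), and 0.357% higher and 0.497% lower in tg(*hsp70l:msgn1*). The counts of this and the later lists stand beside these shares. A list without a call in tg(*hsp70l:msgn1*) is thus near the share of all genes there. Of 9 genes for inhibitory and G13 class G proteins and arrestins, the proteins that carry or shut off receptor signals, 4 were called higher and 0 lower in tg(*hsp70l:tbx16*). Their median log2 fold change was 0.20, against 0.03 over all genes, and stays so with *arrb1* at its lower bound. The G protein subunit *gnai1* rose from 78.0 to 88.9 CPM in wild type to between 121 and 136 (log2 fold change 0.61, adjusted p = 0.000908, edgeR). The subunit *gnai2b* rose by 0.72 on the log2 scale (adjusted p = 0.00154) and the arrestin *arrb2b* by 0.64 (adjusted p = 0.000787, both edgeR).

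The fourth, the arrestin gene *arrb1*, was barely counted, with 0 reads in each wild-type sample and 13 to 31 in tg(*hsp70l:tbx16*), at least 5.66-fold higher if each wild-type library is put at 3 counts. Overexpression of *msgn1* was followed by 1 call among the 9 genes: the arrestin gene *arrb2a* rose from between 69.05 and 72.5 CPM in wild type to between 114 and 156 (log2 fold change 0.88, adjusted p = 0.0273, edgeR), and it was lower in tg(*hsp70l:tbx16*) than in tg(*hsp70l:msgn1*) by its own test (log2 difference -0.70, adjusted p = 0.00538, edgeR). The reverse held for *arrb2b*, which was higher in tg(*hsp70l:tbx16*) than in tg(*hsp70l:msgn1*) by 0.70 (adjusted p = 0.000418, edgeR).

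Of the genes for furin, a protease that cuts peptide precursors, *furinb* was called higher in tg(*hsp70l:tbx16*) (log2 fold change 0.68, adjusted p = 0.0147, edgeR), and neither was called in tg(*hsp70l:msgn1*) by edgeR or by DESeq2. There *furina* had a log2 fold change of -0.29 (unadjusted p = 0.0477, adjusted p = 0.349, edgeR). Both *klf2* genes, transcription factors that respond to blood flow and to apelin signalling in mammalian vessels, were called in tg(*hsp70l:tbx16*) and in opposite directions. There *klf2a* fell by 0.88 and *klf2b* rose by 1.14 on the log2 scale (adjusted p = 0.0106 and 0.0484, edgeR). The level of *klf2b* varied widely within wild type, from 1.83 to 6.95 CPM, against 8.26 to 11.8 in tg(*hsp70l:tbx16*). Neither *klf2* gene was called by edgeR or DESeq2 in tg(*hsp70l:msgn1*), and 0 had an unadjusted p under 0.05.

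Apelin receptors raise the response of zebrafish cells to Nodal, so a list of Nodal pathway genes was counted too. Of 7 tested genes, edgeR called 4 lower and 0 higher in tg(*hsp70l:tbx16*), with a median log2 fold change of -1.34. The gene of the Nodal pathway transcription factor *foxh1* fell 7.19-fold, from a mean of 9.86 to 1.37 CPM. The Nodal inhibitor *lft1* fell 6.21-fold, from 23.8 to 3.84 CPM, and the Nodal coreceptor *tdgf1* fell 2.53-fold, from 53.6 to 21.2 CPM (adjusted p = 7.98e-05, 0.000130 and 4.44e-05, edgeR). The inhibitor *lft2* also fell, from a mean of 0.709 to 0.220 CPM (adjusted p = 0.0411, edgeR). The Nodal ligand *ndr1* had too few counts for the edgeR filter: 0 in each wild-type sample, 13, 12 and 16 in tg(*hsp70l:tbx16*), and 6, 0 and 0 in tg(*hsp70l:msgn1*). DESeq2, which was run without that filter, called it higher in tg(*hsp70l:tbx16*) (adjusted p = 0.0262), against the direction of the other calls of the list. Of the 7, 0 were called in tg(*hsp70l:msgn1*) by edgeR or DESeq2, and 0 had an unadjusted p under 0.05. DESeq2 gave an adjusted p in that comparison for only 5 of them, without *ndr2* and *lft2*. The means in that line were 7.73 CPM for *foxh1*, 23.3 for *lft1* and 49.7 for *tdgf1*. All 3 of these genes differed between the lines (adjusted p = 0.000165, 0.000136 and 6.83e-05, edgeR).

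Markers of the tissues that send or receive these signals were counted in the same way. Of 10 notochord markers, 8 were called lower in tg(*hsp70l:tbx16*) and 1 in tg(*hsp70l:msgn1*), none was called higher in either, and none was at 0 in a group. Their summed level was 2195 to 2630 CPM in wild type, 1332 to 1687 in tg(*hsp70l:tbx16*) and 1881 to 2574 in tg(*hsp70l:msgn1*). Not called in tg(*hsp70l:tbx16*) were *ntd5* and *col8a1a*, with positive log2 fold changes of 0.36 and 0.15 (adjusted p = 0.113 and 0.468, edgeR). Between the lines *ntd5* was called higher in tg(*hsp70l:tbx16*) by 0.57 (adjusted p = 0.019, edgeR). The largest falls of the list in tg(*hsp70l:tbx16*) were those of the hedgehog ligand *shhb* (14.3-fold) and the homeobox gene *noto* (13.8-fold). In pooled tailbuds the tissue that the *shhb* reads came from cannot be told, so its fall is not read as one of the notochord. The 1 edgeR call in tg(*hsp70l:msgn1*) was *noto*, which fell 1.74-fold (adjusted p = 0.0368, edgeR). In that line 5 of the 10 had an unadjusted p under 0.05 (edgeR), all with negative log2 fold changes, and DESeq2 called 3 lower. Of those 5, *shhb* had a log2 fold change of -0.85 (adjusted p = 0.0929, edgeR).

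All 8 tailbud progenitor markers were called lower in tg(*hsp70l:tbx16*) and 0 in tg(*hsp70l:msgn1*), with summed levels of 1585 to 1672 CPM in wild type, 431 to 680 in tg(*hsp70l:tbx16*) and 1302 to 1431 in tg(*hsp70l:msgn1*). The name *wnt8a*, 1 of these 8, stands on more than 1 row of the table. The row used had few counts, 38 to 73 in the wild-type samples and 4 to 8 in those of tg(*hsp70l:tbx16*). The lists share genes: *tbxta* is also among the notochord markers and *sox2* among the neural genes below. Both were called lower in tg(*hsp70l:tbx16*), so their calls and levels count in 2 lists each. Of the 8, 5 had in tg(*hsp70l:msgn1*) an unadjusted p under 0.05 (edgeR), and DESeq2 called 2 of the 7 for which it gave an adjusted p. The median log2 fold change in that line was -0.48, against -2.32 in tg(*hsp70l:tbx16*). The log2 fold changes of *apela* beside these medians were -1.05 and -0.99. The part of notochord or progenitor markers in the level of *apela* was not tested, and in pooled tailbuds fewer cells of a type and less RNA per cell cannot be told apart.

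Of 11 angioblast and endothelium markers, 3 were called higher and 4 lower in tg(*hsp70l:tbx16*), and 0 in tg(*hsp70l:msgn1*), where 4 had an unadjusted p under 0.05 and DESeq2 called 1. The transcription factors *npas4l* and *etv2*, which start the vessel fate, rose 6.49-fold and 3.65-fold, while the VEGF receptor *kdrl* fell 4.56-fold (adjusted p = 1.53e-05, 0.000751 and 8.93e-06, edgeR). The summed level was 366 to 421 CPM in wild type, 693 to 1077 in tg(*hsp70l:tbx16*) and 282 to 377 in tg(*hsp70l:msgn1*), and none was at 0 in a group. The receptor *aplnrb*, which angioblasts express, was 1.21-fold higher in tg(*hsp70l:tbx16*) and did not pass the test there. The other receptor, *aplnra*, was 1.08-fold higher in that line, overlapped wild type and did not pass (adjusted p = 0.476, edgeR). The part of angioblasts in the receptor levels was not tested.

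Of 6 tested endoderm markers, 4 were called lower in tg(*hsp70l:tbx16*), with *gata5*, *gata6* and *foxa2* 2.12-fold to 2.75-fold lower. Not called were *foxa3* (log2 fold change -0.15, adjusted p = 0.609, edgeR) and *sox17* (-0.05, adjusted p = 0.948, edgeR). The level of *sox17* was low, with a mean of 0.624 CPM in wild type, and *sox32* (0.180 CPM) had too few counts for the test. Of 6 tested lateral plate and heart markers, 2 were called lower and 1 higher in that line. The gene *hand2*, needed for heart precursors, fell 13.3-fold, from 41.1 to 3.10 CPM. The other gene called lower, *tbx20*, was barely counted, with a mean of 1.54 CPM in wild type and 0.394 in tg(*hsp70l:tbx16*). In the other direction, *prrx1a* rose 2.11-fold, from 4.45 to 9.40 CPM (adjusted p = 0.00569, edgeR). Neither list had a call in tg(*hsp70l:msgn1*) by edgeR or DESeq2, and 2 endoderm and 0 lateral plate markers had an unadjusted p under 0.05. DESeq2 gave an adjusted p there for only 5 endoderm and 3 lateral plate and heart markers. Neither receptor gene among the members showed a fall of this kind. Instead, *aplnra* and *aplnrb* were 1.08-fold and 1.21-fold higher in tg(*hsp70l:tbx16*), with intervals that reach down to 0.915-fold and 1.01-fold of wild type. The related gene *aplnr2*, which is not a member, fell 5.06-fold in that line. The part of these cell types in the receptor levels was not tested.

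The remaining lists hold markers of other tissues that a cut tailbud can carry. Of 10 neural genes, 7 were called lower in tg(*hsp70l:tbx16*), and 2 lower and 1 higher in tg(*hsp70l:msgn1*), with summed levels of 640 to 660 CPM in wild type, 217 to 307 in tg(*hsp70l:tbx16*) and 397 to 483 in tg(*hsp70l:msgn1*). In the latter line 7 of the 10 had an unadjusted p under 0.05 (edgeR), and DESeq2 called 3 lower and 1 higher. Of 14 paraxial mesoderm genes, 2 were called higher and 5 lower in tg(*hsp70l:tbx16*), and 1 higher in tg(*hsp70l:msgn1*). The overexpressed gene itself is 1 of the 2 called higher in tg(*hsp70l:tbx16*), beside the somite boundary gene *ripply2* (1.84-fold), and is the 1 call in tg(*hsp70l:msgn1*). Among 5 epidermis genes the basal keratinocyte factor *tp63* fell in both lines, 2.51-fold in tg(*hsp70l:tbx16*) and 2.05-fold in tg(*hsp70l:msgn1*) (adjusted p = 0.000162 and 0.0110, edgeR), and *epcam* fell 1.57-fold in tg(*hsp70l:tbx16*) (adjusted p = 0.0462, edgeR). The summed epidermis level, led by keratins, ran from 2403 to 8938 CPM within wild type alone and from 2568 to 9338 over the 6 transgenic samples. Of 4 yolk syncytial layer genes, 1, the apolipoprotein gene *apoa2*, was called lower in tg(*hsp70l:tbx16*), and 0 were called in tg(*hsp70l:msgn1*). The median log2 fold change of the list in tg(*hsp70l:tbx16*) was -1.94, and replicate 1 of that line stood apart. It had 41.05 CPM of *apoa2* against 2.63 and 5.69 in replicates 2 and 3 and 100.5 to 112 in wild type. It also had 215 CPM of *apoa1b* against 15.4 and 32.8, with 336 to 401 in wild type, where the change did not pass the test (adjusted p = 0.0523, edgeR). Without this replicate the log2 fold change of *apela* was -1.05 (adjusted p = 0.00585, edgeR). Of 5 erythroid genes, 0 were called in either line. For the yolk list in tg(*hsp70l:msgn1*) and the erythroid list in both lines, DESeq2 also called 0 and 0 genes had an unadjusted p under 0.05 (edgeR). DESeq2 gave an adjusted p for only 2 of the 4 yolk genes there, and for all 5 erythroid genes. The part of these tissues in the levels of the 4 genes was not tested.

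**Figure D4:**
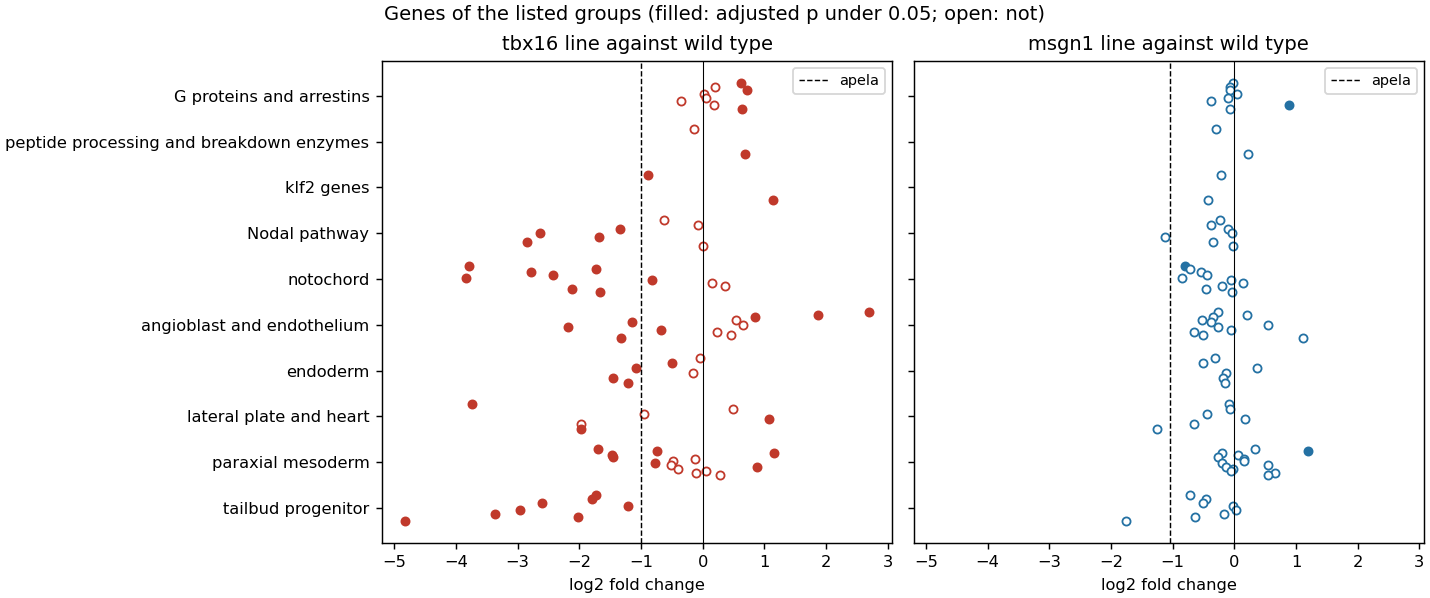
Log2 fold change of each tested gene of 10 lists in tg(*hsp70l:tbx16*) and in tg(*hsp70l:msgn1*) against wild type, on 1 shared axis (*arrb1*, at 0 counts in wild type, and 1 gene not reported here are left out). Filled symbols passed an adjusted p of 0.05, and the dashed line marks *apela*. In tg(*hsp70l:tbx16*) all 8 tailbud progenitor genes lie to the left of *apela*, and in tg(*hsp70l:msgn1*) 1 of them does.

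Genes with the most similar pattern were found by the root mean square difference in log2 CPM over the 9 samples, after each gene was centred on its own mean, among 13166 other genes with a unique name and at least 100 counts on average. The nearest to *apela* was the nuclear receptor gene *esrrga* (0.21 log2 units), followed by the BMP antagonist gene *nog2* (0.21), *kdf1a* (0.22), the amino acid transporter gene *slc7a10a* (0.22) and the retinol dehydrogenase gene *rdh8a* (0.23). The spread of *apela* about its own mean was 0.52 on the same scale. The log2 fold changes of *esrrga* were -1.002 in tg(*hsp70l:tbx16*) and -1.14 in tg(*hsp70l:msgn1*). They are close to those of *apela* because the gene was chosen for its likeness over these same samples.

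The other members varied far less about their means, by 0.17 for *apln*, 0.18 for *aplnra* and 0.16 for *aplnrb*, so many genes lie near them. The nearest to *apln* were *plekha8*, *kbtbd8*, *smad6a*, *sec63* and the integrin gene *itgav*, at 0.06 to 0.08. The nearest to *aplnra* were *zgc:162948*, *COX7A2*, *ppih*, *zgc:171480* and the cell cycle inhibitor gene *cdkn1ca*, at 0.08 to 0.10, and for *aplnrb* they were the mitotic kinase gene *ttk*, *hnrnpl2*, *si:dkeyp-87e7.4*, *bmb* and *tfpt*, at 0.05 to 0.06. Among the members themselves, the receptors were the closest pair (0.19) and *apela* and *aplnrb* the farthest apart (0.66). The distance between the receptors was no smaller than the spread of either about its own mean (0.18 and 0.16). That comparison alone does not settle whether they share a pattern. Both receptors lay below their own means in every wild-type sample. In tg(*hsp70l:msgn1*) replicate 2 they parted, with *aplnra* 0.39 above and *aplnrb* 0.10 below its mean.

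**Figure D5:**
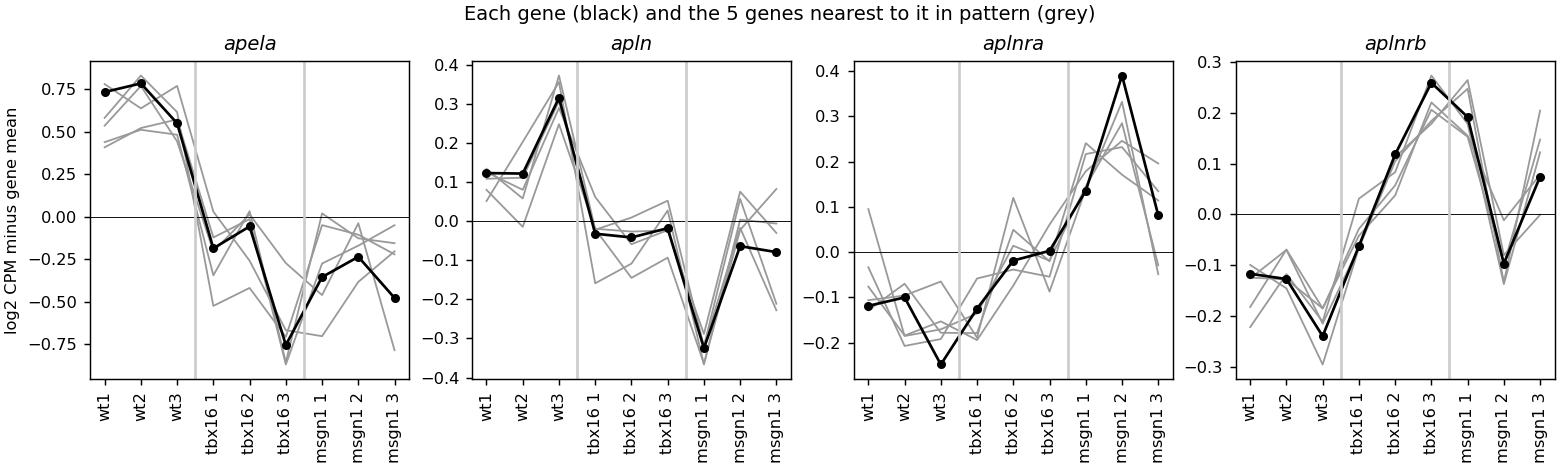
Log2 CPM of each member (black) and its 5 nearest genes (grey) in the 9 samples, each centred on its own mean, on a separate scale for each member. The fall of *apela* from wild type to both lines and its low point in tg(*hsp70l:tbx16*) replicate 3 are shared by some of the grey lines, and the peak of *aplnra* in tg(*hsp70l:msgn1*) replicate 2 exceeds those of its neighbours.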

How the data were processed

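RNA of 9 samples of pooled tailbuds was sequenced. The authors trimmed reads with Trim Galore 0.5.0, aligned them to GRCz11 with HISAT2 2.1.0, estimated expression with StringTie, and deposited a table of raw read counts for each gene in whole numbers. The annotation release, strand setting and step to whole numbers are not given in the sources used here. A total of 64 rows without a gene name, under 0.101% of counts in any sample, were left out.

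All 9 samples were fitted together with edgeR 4.0.16 (limma 3.58.1, R 4.3.3): TMM normalization, filterByExpr, 1 coefficient per genotype, quasi-likelihood F-test and Benjamini-Hochberg adjustment over all tested genes. Intervals use the degrees of freedom of that test. Ratios of raw counts were compared by exact permutation over samples. The fit was tested on simulated data. Alternatives were RLE factors, library size alone, DESeq2 1.42.0, no filter, a fit of only 2 groups at a time, a minimum of 10 counts in all samples, a block for the replicate number, each sample left out and, added after seeing the data, tg(*hsp70l:msgn1*) replicate 2 as the only sample of its line.

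The members and lists were chosen with earlier results of these data known. Genes named are the 4 members, the 5 nearest in pattern to each, and in each list at most the 3 called genes with the largest change or genes whose role is stated. The text names *aplnr2*, *col8a1a*, *foxa3*, *ntd5*, *sox2*, *sox17*, *sox32* and *tbxta* outside this rule. Of list genes, *mme* was not analysed here, 1 enzyme gene is not reported here, and *wnt8a* stands on more than 1 row, of which the one with the most counts was used.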

Additional observations from a re-analysis of the deposited data

How the results depend on the processing

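Over 12 changes of members and 17 alternatives each, 187 values kept direction and side of the threshold, 6 lost their call, 5 gained one and 6 changed sign. For *apela* in tg(*hsp70l:tbx16*), all 17 kept the call (adjusted p at most 0.00991, edgeR).

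Scaling by library size alone called *aplnrb* in tg(*hsp70l:tbx16*) (log2 fold change 0.42, 2 members called) and, between the lines, *apln* (0.44) and *aplnrb* (0.39; 2 members called), and turned *aplnra* between the lines to 0.066. That scaling moved the median of all genes to 0.18, -0.20 and 0.38 in the 3 comparisons and the share of called genes that were lower from 51.1% to 37.0%, from 58.2% to 77.0% and from 51.6% to 23.4%, so these values follow the scaling. DESeq2 called *aplnra* in tg(*hsp70l:msgn1*) (0.36, 2 members called), where it called 708 genes against 170 with edgeR.

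With tg(*hsp70l:msgn1*) replicate 2 as the only sample of its line, assumed to vary like the other groups, 1 gene and 0 members were called against wild type (*apela* -0.94). Between the lines 3495 genes and 1 member were called (*aplnra* -0.44, *apela* -0.072).

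With single samples left out, genes called ranged from 3968 to 6644, from 37 to 1198 and from 5640 to 8010 in tg(*hsp70l:tbx16*) and tg(*hsp70l:msgn1*) against wild type and between the lines. The 37 were without wild-type replicate 1 and the 1198 without tg(*hsp70l:msgn1*) replicate 2. Members called in tg(*hsp70l:msgn1*) ranged from 0 to 1, with *apela* at -1.11 to -0.99. Between the lines *apela* ran from -0.079 to 0.23 and *aplnrb* from -0.038 to 0.14. The cause of these changes was not tested.

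The labels do not say whether the numbers pair the samples. Between wild type and tg(*hsp70l:msgn1*), same-number correlations of deviations ran from 0.0182 to 0.402, with a mean of 0.175. Those of different numbers ran from -0.325 to 0.265, with a mean of -0.0866. Deviations from a group's mean cancel out over its samples, so these means are tied to each other. The mean of different numbers therefore adds no separate information. Between wild type and tg(*hsp70l:tbx16*), same numbers gave -0.0688 to 0.116 and different numbers -0.150 to 0.173. These correlations do not settle whether samples were paired. The replicate block gave 85 genes in tg(*hsp70l:msgn1*), with an adjusted p of 0.0178 for *apela* (log2 fold change -1.05, edgeR), and changed no call of a member.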
